A study of Homo sapiens with 480 samples.

Results

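The interferon-stimulated genes described here are 44 named genes of the 27021 genes in the deposited tables. They were chosen by name as well-known targets of interferon, with earlier results of these data known. All 44 are listed in each of the 5 tables. By known role they divide into 6 nucleic acid sensors and their enzymes, 4 transcription factors, 5 genes of the ISG15 conjugation pathway, 17 antiviral effectors, 4 genes of the PARP and nuclear body group and 8 other induced genes. They were followed over 480 single cells in 5 groups of 96: untreated BJ fibroblasts, a human fibroblast line; BJ cells at 2 and at 8 days after induction of virally delivered OCT4, SOX2, KLF4 and MYC (OSKM); and cells at 16 days, given as fractions positive and negative for TRA-1-60, a surface antigen of pluripotent cells. All 5 groups derive from the same line, and the 4 treated groups all carry the virus and the 4 factors; the kind of virus and its promoter are not given in the sources used here. The labels tell apart no cultures, infections or chips within a group. A group is therefore 1 sample whose cells are not replicates, and no test of a difference between groups was possible.

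Interferons are secreted proteins that cells make when sensors detect foreign or misplaced RNA or DNA. They bind receptors on the same or on neighbouring cells, the receptor kinases JAK1 and TYK2 pass the signal on, and STAT2 joins IRF9 in a complex that binds interferon-stimulated response elements in the promoters of the induced genes. Many of the induced genes encode the sensors and the transcription factors themselves, so the system amplifies its own response, while others act on viral RNA, membranes or translation. Fibroblasts respond to type I interferon, and pluripotent cells are known for a weak response.

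The promoters of the members were searched for the core of this response element, GAAANNGAAA, which reads TTTCNNTTTC on the other strand. RefSeq promoter windows (build GRCh38.p14, 250 bases before to 50 after the annotated start) were matched for 36 of 44 members, among them DDX58 under its current symbol RIGI. OAS2, IRF7, USP18, IFIT2, IFITM2, MX2, TRIM22 and OASL had no entry. A match stood in 23 of 36 members (63.9%) and in 1195 of all 27305 genes with windows (4.38%). Overlapping matches within a window were counted once per gene, and a match describes the letters only. Stretches before the start are shown for 5 members that were higher at day 2 and in the negative fraction (ISG15, IFI6, IFIT1, IFI27 and MX1). They are also shown for 1 that was not (IFIT5), and for the 3 with their highest mean in the positive fraction (IFITM1, HERC5 and PLSCR1). Each runs 5′ to 3′ on the strand of its gene, and capitals mark the matches that lie wholly within the stretch; a further match of IFIT5 and of IFITM1 runs past the end of its stretch and is left in lower case.
ISG15 (chr1:1013362-1013421): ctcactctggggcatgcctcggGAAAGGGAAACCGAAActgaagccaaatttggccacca
IFI6 (chr1:27672251-27672310): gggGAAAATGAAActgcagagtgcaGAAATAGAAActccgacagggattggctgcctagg
IFIT1 (chr10:89392488-89392547): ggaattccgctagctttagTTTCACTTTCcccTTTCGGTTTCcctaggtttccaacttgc
IFI27 (chr14:94110609-94110668): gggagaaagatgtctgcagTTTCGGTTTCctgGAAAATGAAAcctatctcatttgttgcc
MX1 (chr21:41431829-41431888): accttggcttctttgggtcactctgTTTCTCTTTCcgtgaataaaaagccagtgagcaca
IFIT5 (chr10:89414508-89414567): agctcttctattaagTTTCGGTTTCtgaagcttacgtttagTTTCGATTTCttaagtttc
IFITM1 (chr11:313975-314034): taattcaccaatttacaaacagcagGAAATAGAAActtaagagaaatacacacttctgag
HERC5 (chr4:88457020-88457079): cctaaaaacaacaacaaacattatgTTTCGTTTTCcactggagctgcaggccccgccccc
PLSCR1 (chr3:146544652-146544711): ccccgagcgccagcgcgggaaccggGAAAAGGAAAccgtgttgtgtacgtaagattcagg
ISG15 carries 2 overlapping matches that begin 113 and 107 bases before its start. IFIT1 carries 2, at 116 and 103 bases. PARP9 and DTX3L, divergent neighbours, share 1 match at chr3:122564332-122564341. Of the members with an entry, those at least 2-fold higher at day 2 than in BJ held a match in 17 of 22 cases, and the others in 6 of 14.

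Of the 480 cells, 460 were kept (92 BJ, 96 day 2, 92 day 8, 95 positive and 85 negative), and the median cell of a group held between 5678 genes in BJ and 5915 at day 8. FPKM, fragment numbers scaled to gene length and library size, were rescaled so that each cell summed to 1000000, and every level below is in this unit; a gene counts as detected in a cell at a value of 1 or more. The 10 fibroblast marker genes summed to group means of 12123 (BJ), 6375 (day 2), 3106 (day 8), 1980 (positive) and 11109 (negative), and the 12 pluripotency genes to 2.58, 2.72, 109, 3558 and 51.3. The sum of the fibroblast list was thus lowest in the positive fraction, which held most of the pluripotency RNA, and near its BJ level in the negative fraction. The make-up of that sum differed: its highest gene was VIM in BJ, at 7607, and COL1A2 in the negative fraction, at 3401. Of 16 immune markers, between 0 (day 8) and 3 (negative fraction) had a mean of 1 or more in a group, and their means summed to at most 9.65. PTPRC, which marks all leukocytes, had a mean of 1.02 at day 2. Of 5 endothelial markers TEK was the highest, at 14.2 at day 8 and 37.7 in the negative fraction, and the keratinocyte markers summed to 99.9 at day 2 through KRT14 (81.6). RPL21, a ribosomal protein gene, stood apart in the same tables as the members, with means of 4.44, 1225, 5.90, 2.49 and 992 in the order above.

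Most of the interferon-stimulated genes were low in BJ, higher at day 2, low again at day 8 and in the positive fraction, and highest in the negative fraction. Of the 44 members, 32 had their highest mean in the negative fraction. Another 8 had it at day 2 (ISG15, IFIT2, IFITM2, ISG20, OASL, SP110, IFI6 and IFI44). The highest mean lay in the positive fraction for 3 (HERC5, IFITM1 and PLSCR1), in BJ for 1 (IFIT5) and at day 8 for 0. How often each group was highest among all genes was not computed, so the 32 stand without a background. Over all measured genes, the median log2 ratio of the negative fraction was 0.49 against day 8 and 0.51 against BJ. For the positive fraction these medians were 0.49 and 0.55. In the median cell the members without IFITM1, IFITM2 and IFITM3 made up 0.135% of the total at day 2 and 0.229% in the negative fraction, against 0.0343% in BJ, 0.0396% at day 8 and 0.0387% in the positive fraction.

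**Figure D1:**
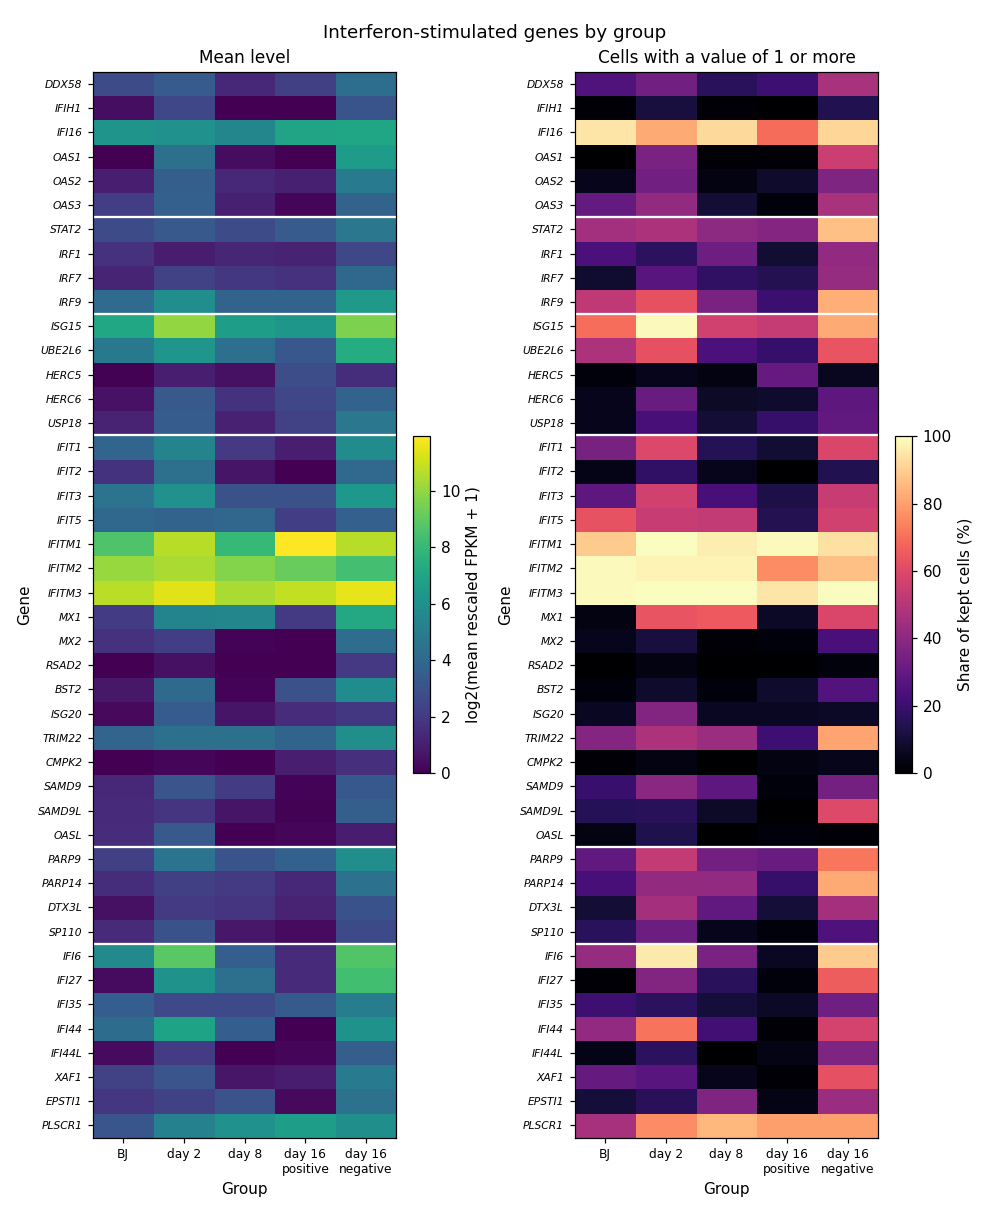
The 44 members (rows, grouped by role with white lines) in the 5 groups (columns), as log2(mean rescaled FPKM + 1) on the left and as the percent of cells detecting the gene on the right. Most rows are brightest in the day 2 and the negative fraction columns, while IFITM1, HERC5 and PLSCR1 have their highest mean in the positive fraction.

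A member was called at least 2-fold different between groups when the log2 ratio of (mean + 1) reached 1 in size and the mean of log2 values moved the same way, and where either group had a mean of at least 1; this scale understates the ratio of low genes. Between BJ and day 2, 42 members had such a mean; 27 were higher and 0 lower at day 2, while 12.2% of 12480 genes were called higher. The median log2 ratio was 1.52 over the members and -0.02 over all genes. From day 2 to day 8, 27 of 42 members were lower and 0 higher, where 12.5% of all genes were lower; the medians were -1.92 and 0.06. Against day 8, 40 of 43 members were higher in the negative fraction (28.4% of all genes) and 1, IFITM2, was lower (10.6%), with medians of 2.54 and 0.49. In the positive against the negative fraction, 35 of 43 were lower (21.4%) and 2, HERC5 and IFITM1, were higher (24.8%), with medians of -2.66 and 0.06. Genes with this course were few: of 8583 genes with a mean of 10 or more in a group, 20 (0.233%) had means at day 2 and in the negative fraction both at least 4-fold above each other group. Of the 35 members with such a mean, 5 met this rule (IFI6, IFIT2, ISG15, OAS1 and OAS2), and RPL21 met it too. IFIT2 met it through day 2 cell 55 alone: without that cell its day 2 mean was 3.01 in place of 20.5, and 4 members and 19 genes met the rule. These comparisons share groups, so that a high level at day 2 enters the first and the second alike.

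Against day 8, 21 of 33 measured members were called neither higher nor lower in the positive fraction. The median log2 ratio was -0.25 over the members and 0.49 over all genes. Of 33 measured members 4 were higher (HERC5, USP18, IFITM1 and BST2), where 30.3% of all genes were, and 8 were lower (UBE2L6, IFIT5, MX1, SAMD9, IFI6, IFI27, IFI44 and EPSTI1), where 11.6% were. This split depended on the scale. When cells were scaled on housekeeping genes, 7 members were lower, where 7.81% of all genes were, and 13 were higher. The share of all genes that were higher on that scale was not computed. The median log2 ratio was then 0.93 over the members and 1.27 over all genes. Against BJ, the negative fraction was higher for 38 of 44 members (31.4% of all genes) and lower for IFITM2 (13%). Day 8 was higher than BJ for 6 of 36 members (15.2%) and lower for 8 (15%), and the positive fraction was higher for 9 of 39 (34.4%) and lower for 15 (13.6%).

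The genes of the signal that acts upstream of the members were followed through 61 pathway genes, of which 23 had a mean of 10 or more in a group. Of 21 interferon ligand genes 13 were listed at 0 in every kept cell, and the other 8 were detected in few cells: some ligand was detected in 4 BJ cells, 4 day 2 cells, 2 positive cells, 1 negative cell and 0 cells of day 8. IFNB1, the interferon that fibroblasts are known to make first, was detected in 1 day 2 cell at 2.27. IFNE was detected in 1 day 2 cell at 22.2, and that cell, number 5, detected 37 of the 44 members, the second most at day 2. The depth per cell is unknown, so no limit of detection per cell can be put on the ligands.

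Receptors and kinases did not follow the members as a list. IFNAR1, a chain of the type I receptor, had means of 13.2, 14.8, 13.3, 7.81 and 26.3 in the order BJ, day 2, day 8, positive, negative. JAK1 had means of 127, 182, 17.2, 116 and 37.9, with medians of 31.8, 38.2, 10.0, 27.5 and 27.5, so its means in BJ, at day 2 and in the positive fraction rested on few cells, and the medians of both day 16 fractions were equal. TYK2, the kinase at the other receptor chain, had 9.09, 45.7, 7.67, 7.74 and 14.7. Of 29 measured pathway genes, 6 were higher at day 2 than in BJ (TYK2, IRF3, DHX58, TRIM25, PTPN2 and CIITA) and 5 lower (MB21D1, SOCS1, SOCS3, GBP1 and GBP2), where 12.2% of all genes were higher and 12.1% lower. In the negative fraction 15 of 29 were higher than at day 8 (28.4% of all genes) and 0 lower (10.6%). In the positive against the negative fraction 13 of 31 were lower (21.4% of all genes) and 4 higher (24.8%), namely SOCS1, PTPN6, IDO1 and, by its mean but not its median, JAK1.

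DNA sensing genes and inhibitors showed other courses. MB21D1, which encodes the DNA sensor cGAS, had a mean of 26.6 in BJ and between 1.02 and 2.36 in the other groups. TMEM173, which encodes its adaptor STING, had means of 46.4, 43.3, 39.2, 4.84 and 87.1 and was detected in 8.42% of cells of the positive fraction (95% interval 3.71-15.9) against 85.9% of the negative (76.6-92.5). GBP1, a target known for its response to interferon gamma, was lower at day 2 than in BJ. It had means of 22.4, 7.19 and 5.62 in BJ, day 2 and day 8. It was listed at 0 in every cell of the positive fraction and had 35.5 in the negative. SOCS1, an inhibitor of JAK kinases, was highest in the positive fraction at 15.1 (27.4% of cells) and between 0.871 and 4.46 elsewhere.

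Among the 6 sensors, 4 were higher at day 2 than in BJ (IFIH1, OAS1, OAS2 and OAS3), where 12.2% of all genes were. All 6 were higher in the negative fraction than at day 8, where 28.4% of all genes were. OAS1, a synthetase that senses double-stranded RNA and activates RNase L, was listed at 0 in all 92 BJ cells. It ranged from 0 to 228 at day 2, from 0 to 29.6 at day 8, from 0 to 2.13 in the positive and from 0 to 1078 in the negative fraction, with medians of 0 except for 6.92 in the negative fraction. It was detected in 34 of 96 day 2 cells (35.4%, 25.9-45.8), in 1 cell each of day 8 and the positive fraction, and in 47 of 85 negative cells (55.3%, 44.1-66.1). For BJ, 0 of 92 cells allows a share of up to 3.26%. OAS1 was therefore a gene detected almost wholly in the day 2 and negative groups. OAS2, a relative of OAS1, had means of 0.975, 11.1, 1.48, 1.05 and 29.5, and OAS3 had 3.46, 11.5, 1.05, 0.145 and 12.9. OAS3 differed from OAS1 in BJ, where 30.4% of cells detected it.

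The RNA helicases were less abundant. DDX58, which encodes the RNA sensor RIG-I, had means of 5.67, 9.95, 1.56, 3.76 and 19.2. IFIH1, which encodes the sensor MDA5, stayed under 10 in every group and is named here after its values were seen: it was detected in 1 BJ cell, 11 day 2 cells and 12 negative cells, 1 day 8 cell and no positive cell. IFI16, a DNA-binding sensor, took no part in the day 2 course, with means of 71.4, 64.8, 43.5, 124 and 131 and detection in 69.5 to 94.6% of cells of each group.

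Of the 4 transcription factors, IRF7 and IRF9 were higher at day 2 than in BJ, where 12.2% of all genes were. IRF9, the DNA-binding part of the complex with STAT2, had means of 16.9, 56.1, 12.9, 13.1 and 88.1 and was detected in 52.2, 62.5, 35.9, 20.0 and 83.5% of cells. IRF7, which amplifies interferon production, had 1.39, 3.97, 2.88, 2.26 and 14.6. STAT2, which binds IRF9 in that complex, differed by less than 2-fold between the first 4 groups, with 5.54, 9.20, 5.81 and 9.95, and had 25.8 in the negative fraction, where 87.1% of cells detected it. All 4 factors were higher in the negative fraction than at day 8 (28.4% of all genes) and than in the positive fraction (21.4%). IRF1, the fourth, stayed under 10 in every group.

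The ISG15 pathway attaches the small protein ISG15 to other proteins. ISG15 itself ranged from 0 to 3703 in BJ (median 56.3), from 0 to 8727 at day 2 (median 456), from 0 to 1000 at day 8 (median 13), from 0 to 882 in the positive (median 12.9) and from 0 to 4534 in the negative fraction (median 478). Its means were 138 ± 399, 1034 ± 1615, 104 ± 186, 79.2 ± 139 and 778 ± 871 (SD over cells). The ranges overlapped in full, but the medians of day 2 and the negative fraction exceeded those of the other groups, and 99.0% of day 2 cells detected the gene. The log2 ratio was 2.90 from BJ to day 2, -3.31 from day 2 to day 8 and -3.28 in the positive against the negative fraction. UBE2L6, the conjugating enzyme for ISG15, had means of 27.4, 73.1, 20.1, 8.49 and 169. USP18, which removes ISG15 and damps the receptor, had 1.29, 10.1, 1.13, 4.16 and 26. HERC6 had 0.486, 9.14, 2.34, 4.86 and 13.1. HERC5, the human ligase for ISG15, went another way: it stayed under 10 in every group and is singled out after its values were seen, with detection in 2.17, 5.21, 3.26, 30.5 and 5.88% of cells. Its share in the positive fraction had a 95% interval of 21.5-40.8, which covers counting error over cells only and tests no difference between groups. HERC6 and HERC5 are neighbours on chromosome 4.

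**Figure D2:**
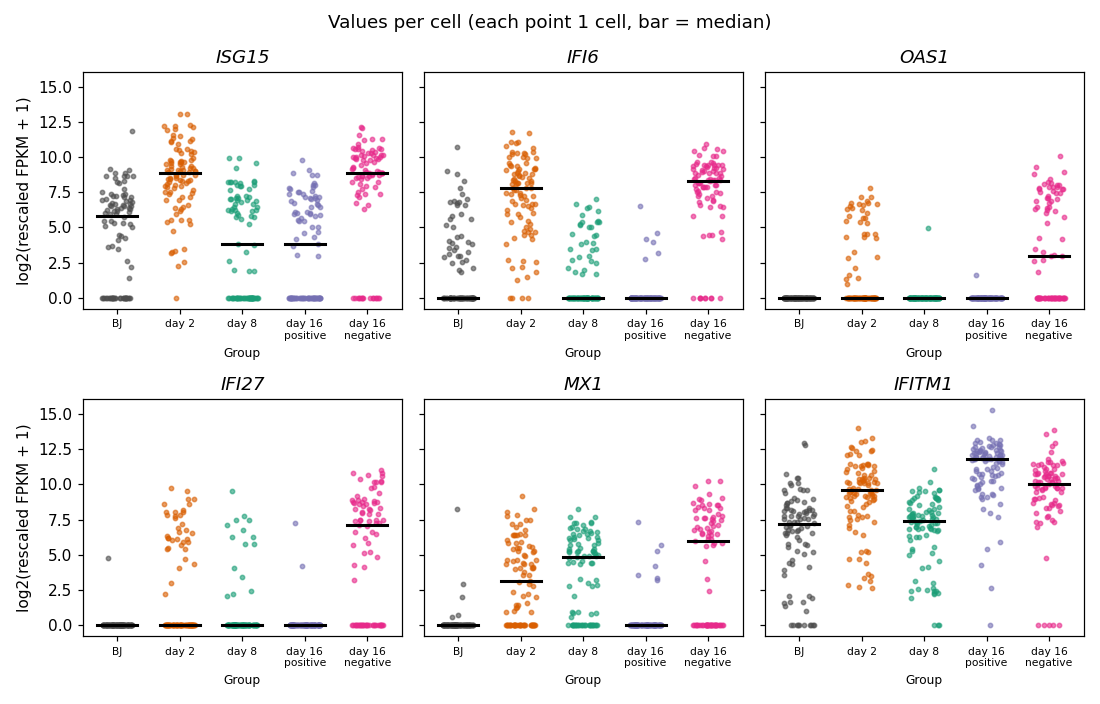
Values of ISG15, IFI6, OAS1, IFI27, MX1 and IFITM1 in every kept cell, as log2(rescaled FPKM + 1) on the y axis, by group on the x axis; each point is 1 cell and the bar is the median. OAS1 lies at 0 in all BJ cells, MX1 is as high at day 8 as at day 2, and IFITM1 is highest in the positive fraction.

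Of 17 antiviral effectors, 15 were measured between BJ and day 2, and 9 of them were higher at day 2, where 12.2% of all genes were. The IFIT proteins bind viral RNA that lacks the marks of host messages. IFIT1 had means of 14, 41.2, 2.93, 0.999 and 53.4, and IFIT3 had 22.3, 65, 6.81, 6.85 and 82.9. In both, 1 BJ cell held most of the BJ sum: cell 8 gave 53.8% of the BJ sum of IFIT1 and 79.3% of that of IFIT3. IFIT2 had 2.32, 20.5, 0.622, 0 and 15.7, and 85.5% of its day 2 sum came from cell 55, where it reached 1683. IFIT5, whose promoter window carries matches too, differed little from BJ to day 8, with 14.7, 13.2 and 14.2, and was lower in the positive fraction at 3.60 (14.7% of cells against 53.3% at day 8).

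MX1, a GTPase that traps viral nucleocapsids, did not return to its BJ level at day 8. It ranged from 0 to 299 in BJ with a median of 0, from 0 to 584 at day 2 (median 7.65), from 0 to 298 at day 8 (median 27), from 0 to 163 in the positive (median 0) and from 0 to 1208 in the negative fraction (median 61.3). It was detected in 3 of 92 BJ cells (3.26%, 0.678-9.23), 63.5% of day 2 cells (53.1-73.1), 65.2% of day 8 cells (54.6-74.9), 7.37% of positive cells (3.01-14.6) and 58.8% of negative cells (47.6-69.4). Its log2 ratio from day 2 to day 8 was 0.10, where the median member had -1.92. MX2, its neighbour on chromosome 21, did not share this: it had means of 2.24, 3.67, 0.0685, 0.0256 and 18.5.

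The IFITM proteins block the fusion of viruses with cell membranes, and they were the most abundant members on this per-length scale. IFITM1 ranged from 0 to 7766 in BJ (median 144), from 5.13 to 16664 at day 2 (median 773), from 0 to 2132 at day 8 (median 165), from 0 to 39934 in the positive fraction (median 3491) and from 0 to 14991 in the negative (median 1047). Its level in the positive fraction thus exceeded that of day 8 by a log2 ratio of 3.95 and that of the negative fraction by 1.26. IFITM2 had its lowest mean in the negative fraction, with means of 1095, 1381, 854, 580 and 335. Its mean log2(value + 1) was instead lower in the positive than in the negative fraction, by 0.39. IFITM3 differed by less than 2-fold from BJ to day 2 (1675 and 2734), and had 1382, 1855 and 2912 in the other groups. The 3 IFITM genes lie side by side on chromosome 11 and are near-identical in parts, so how reads were split between them is uncertain.

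The remaining effectors differed in their course. BST2, which tethers budding virus, had means of 0.708, 15.8, 0.0764, 6.81 and 54.6 and was detected in 8 of 96 day 2 cells and 22 of 85 negative cells. ISG20, an RNA exonuclease, had 0.240, 10.3, 0.604, 1.89 and 2.89, so it was a day 2 gene with little in the negative fraction. TRIM22 was not called different between BJ and day 2, with 14, 20.1, 20.0, 13.6 and 58.3, although its mean log2(value + 1) rose by 0.88. It was detected in 81.2% of negative cells. SAMD9L had 1.66, 2.47, 0.604, 0.0404 and 11.3. The 4 effectors under 10 in every group were RSAD2, CMPK2, SAMD9 and OASL: RSAD2 was detected in 3 day 2 cells and 2 negative cells alone, and OASL in 13 day 2 cells and 1 negative cell.

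PARP9 and PARP14 encode ADP-ribosyltransferase family proteins, DTX3L is the partner ubiquitin ligase of PARP9, and SP110 is a nuclear body protein. PARP9 had means of 3.77, 22.1, 7.65, 12.1 and 57.8. PARP14 had 1.93, 3.80, 3.07, 1.62 and 21.9, and was detected in 82.4% of negative cells against 41.7% at day 2. All 4 genes of this list were higher in the negative fraction than at day 8 (28.4% of all genes) and than in the positive fraction (21.4%). DTX3L and SP110 stayed under 10 in every group. PARP9 and DTX3L are divergent neighbours, and the use of strand in counting is not given in the sources used here.

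Among the 8 other induced genes, IFI6, a mitochondrial and endoplasmic reticulum protein that limits cell death and flavivirus replication, ranged from 0 to 1655 in BJ (median 0), from 0 to 3584 at day 2 (median 219), from 0 to 128 at day 8 (median 0), from 0 to 91.7 in the positive (median 0) and from 0 to 1990 in the negative fraction (median 307). It was detected in 42.4, 95.8, 35.9, 6.32 and 89.4% of cells. Its log2 ratio was -5.30 from day 2 to day 8 and -7.26 in the positive against the negative fraction; against day 8 the positive fraction was lower by mean (-2.15), but this turned to 0.76 in FPKM as deposited and to 1.30 on housekeeping genes. IFI27 ranged from 0 to 26.5 in BJ, from 0 to 846 at day 2, from 0 to 745 at day 8, from 0 to 152 in the positive and from 0 to 2061 in the negative fraction, where alone its median was above 0, at 138. It was detected in 1 BJ cell (1.09%) and in 37.5, 16.3, 2.11 and 65.9% of cells of the other groups, so that at day 8 it too stood above BJ.

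IFI44 had means of 17.5, 122, 11, 0.0183 and 68.6, and its neighbour IFI44L had 0.283, 3.15, 0.00157, 0.107 and 11.1. XAF1, which binds the apoptosis inhibitor XIAP, had 3.98, 7.86, 0.674, 0.939 and 28.5. IFI35 had a lower mean at day 2 than in BJ, just short of the 2-fold call (log2 ratio -0.96), with 10.9, 5.12, 5.25, 9.28 and 31.3. EPSTI1 was detected in more cells at day 8 (37%, 27.1-47.7) than at day 2 (15.6%, 9.02-24.5), with means of 7.20 and 4.16, and had 22 in the negative fraction. PLSCR1, a membrane phospholipid scramblase, was higher in each later group than in BJ, with 8.17, 37.6, 65.8, 102 and 61 in the order above and detection in 46.7, 76, 84.8, 80 and 80% of cells. By mean log2(value + 1), PLSCR1 was 0.12 lower in the positive fraction than at day 8. Its intervals of detection in the 4 treated groups overlapped, and these cover counting error over cells only.

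The spread over cells was examined next, to see whether the members were on in every cell or in some. Cells detected between 3 and 35 members in BJ (median 11), between 7 and 38 at day 2 (median 17), between 4 and 24 at day 8 (median 12), between 1 and 17 in the positive (median 8) and between 6 and 41 in the negative fraction (median 23). Cells with 22 or more members numbered 2 among the 92 of BJ (2.17%, 0.264-7.63), 30 among the 96 of day 2 (31.2%, 22.2-41.5), 2 among the 92 of day 8 (2.17%, 0.264-7.63) and 47 among the 85 negative cells (55.3%, 44.1-66.1). In the positive fraction there were 0 of 95, which allows a share of up to 3.16%. The intervals are exact binomial (Clopper-Pearson) and cover counting error over cells only. Within day 2 and the negative fraction the cells spread without a wide gap. Ordered by their mean log2(value + 1) over the 44 members, neighbouring cells differed by at most 0.989 at day 2 and 0.686 in the negative fraction, both at the top of the order. Sets of cells that overlap would leave no gap either, so this does not tell a graded series from separate sets.

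**Figure D3:**
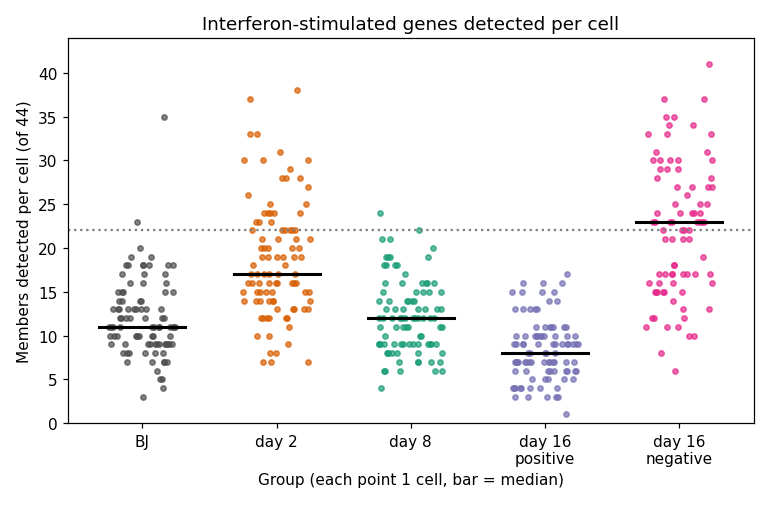
Number of the 44 members detected (y axis) in each kept cell, by group (x axis); each point is 1 cell, the bar is the median, and the dotted line marks 22 members. Day 2 and negative cells spread from few to nearly all members, and 1 BJ cell stands at 35 where the next BJ cell has 23.

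BJ was the exception, since 1 cell stood apart from the rest. BJ cell 8 detected 35 members, and in the member mean it lay at 5.23 where the next BJ cell lay at 2.29. It held ISG15 at 3703, IFI6 at 1655, IFIT3 at 1624 and MX1 at 299, with OAS1 and RPL21 at 0 and 5512 genes detected. It gave over 50% of the BJ sum of 9 members and over 90% for 5 of them, among which are MX1 (96.5%) and BST2 (96.3%), and it held the highest BJ value of 15 members. Without it, 28 members were higher at day 2 (12.3% of all genes), of which 27 were those called with it. The median log2 ratio over the members was 1.74. The MX1 mean of BJ was then 0.120 in place of 3.37.

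At the other end, cell 31 of the negative fraction detected 41 members, the most of all cells. It held the highest value of that group for 8 members, RSAD2 at 248 and OAS1 at 1078 among them. It also was the only kept cell of the series with CXCL10, a chemokine of the interferon response, at 329, and it listed IFNB1 at 0. Without it 36 members were higher in the negative fraction than at day 8 (28.4% of all genes). Then 34 were lower in the positive fraction than in the negative (21.3%). Cell 13 of day 2, with 38 members, held the highest day 2 value of 7 members, MX1 at 584 and OAS1 at 228 among them.

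A higher group mean can come from more cells that detect a gene or from more RNA in those that do, and the log2 ratio of means divides into these parts. Of the 26 members called higher at day 2 and detected in both groups, the share of cells gave the larger part for 12 and the level for 14. ISG15 was a gene of level, with 0.51 from the share and 2.40 from the level. MX1 had 4.28 from the share and -0.67 from the level, but its level in BJ rested on cell 8, 1 of 3 BJ cells that detected it; without that cell the parts were 4.85 and 3.73. IFIH1 was detected in BJ in cell 8 alone, so its parts rest on that cell too. Without cell 8 the share gave the larger part for 9 members and the level for 17. From day 8 to the negative fraction the level gave the larger part for 25 of 38 members, among them IFI6 (1.32 from the share and 3.91 from the level). In the positive against the negative fraction the share gave the larger part for 21 of 33. An RNA of low level can go undetected in a cell, so both parts depend on the depth, which is unknown.

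**Figure D4:**
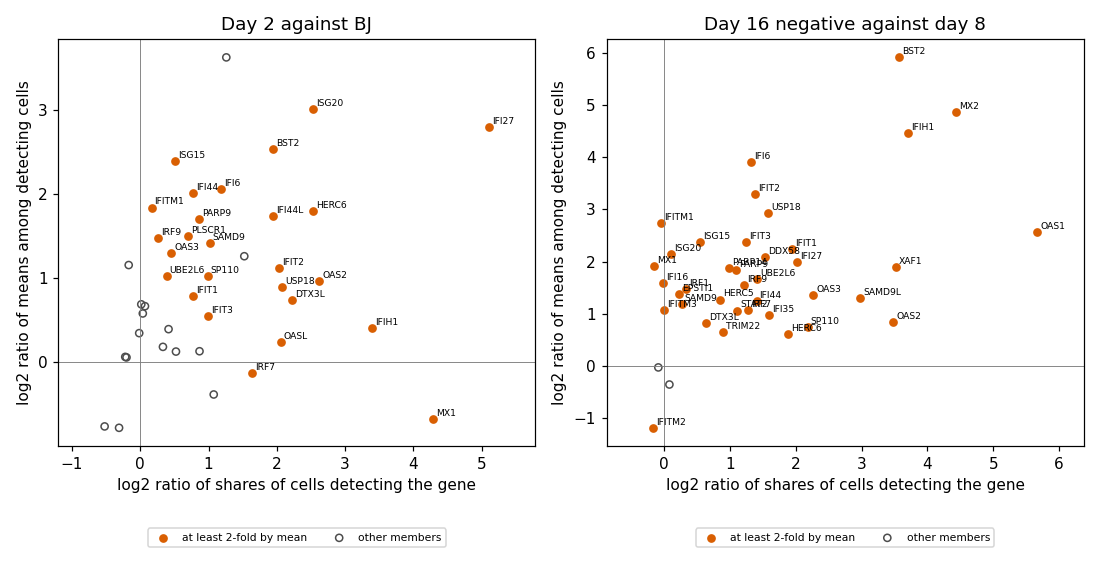
The log2 ratio of the shares of cells detecting each member (x axis) against the log2 ratio of its means among detecting cells (y axis), for day 2 against BJ and for the negative fraction against day 8; filled points are members called at least 2-fold different. MX1 lies far right and below 0 at day 2 through BJ cell 8 (without it the y value is 3.73), while ISG15 and IFITM1 lie near the y axis and high.

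Members varied together over cells to a limited degree. Among members detected in 20 to 80% of cells, the median Spearman correlation over pairs was 0.20 at day 2 (25 members, 300 pairs, 96 cells) and 0.26 in the negative fraction (27 members, 351 pairs, 85 cells), where pairs of all such genes had medians of 0.09 and 0.02. In BJ, day 8 and the positive fraction the members had 0.12, 0.14 and 0.16, and all genes 0.07, 0.03 and 0.15. These correlations share the cell and its depth: the member mean correlated with the number of detected genes at 0.50 (BJ), 0.48 (day 2), 0.52 (day 8), 0.79 (positive) and 0.31 (negative).

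The genes outside the members that followed them most closely over cells are named for day 2 and the negative fraction. In the negative fraction, genes among the 10 with the highest correlation with the member mean, of 8988 detected in at least 20% of cells, were DDX60L (0.52), LAP3, WDR73, LTBR, EIF2AK2, SNAP47, DDX60 and C19orf66 (0.39). At day 2, of 8876 genes, they included ARPC5 (0.62), LAPTM4A, NDUFB6, PEF1, WARS, TAX1BP3, PSMC6, AXL and MAGT1 (0.54). At day 2 the member mean correlated at 0.13 with MYC, -0.05 with SOX2 and 0.29 with KLF4, where the median gene had 0.19. Reads of the delivered and the native copies of these factors cannot be told apart here.

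RPL21 moved with the members between groups but less so within them. At day 2, 24 cells had RPL21 under 100 and 72 had 100 or more, and in the negative fraction 48 and 37; no cell of the other groups reached 100. In the negative fraction the cells under 100 detected a median of 23 members and had an ISG15 mean of 877, and those at 100 or more had 22 and 651. With the cells under 100 alone, 39 members were higher than at day 8 (28.7% of all genes) and 35 were higher than in the positive fraction (21.6%). With all kept cells these counts were 40 and 35. Both sets of cells come from the same table, so this split does not bear on a difference between tables. At day 2 the cells under 100 detected a median of 15.5 members with an ISG15 mean of 545, and the others 19 and 1197. With the 24 day 2 cells under 100 alone, 17 members were higher than in BJ, where 15.7% of all genes were higher, and 3 were lower. The share of all genes that were lower in that setting was not computed. IFIH1, IFIT2 and BST2 turned to log2 ratios of -0.36, -0.77 and -0.08. Over cells, the member mean correlated with RPL21 at 0.26 at day 2 and 0.03 in the negative fraction. The sources used here do not say if the authors normalized the 5 tables jointly, and the part of the table in the group differences cannot be told apart from that of the treatment.

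**Figure D5:**
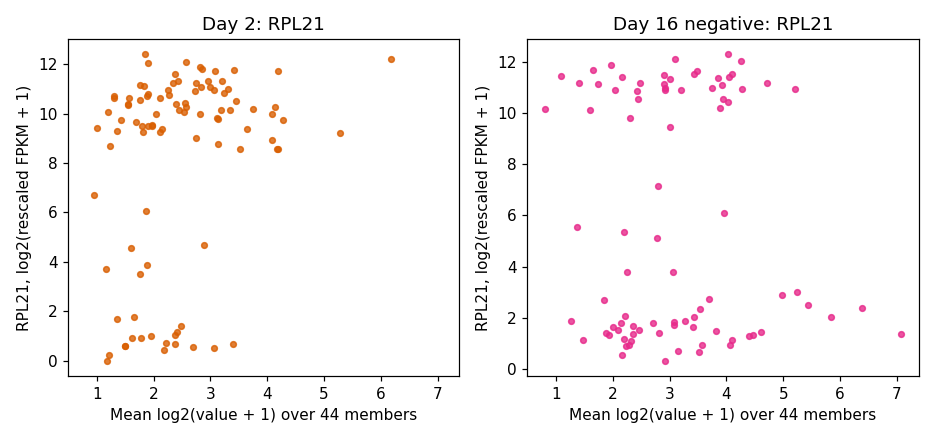
Mean log2(value + 1) over the 44 members in each kept cell (x axis) against RPL21, as log2(rescaled FPKM + 1) on the y axis, for day 2 and the negative fraction. Most cells lie in a low or a high band of RPL21; at day 2 the cells with the highest member means lie in the high band, and in the negative fraction those lie in the low band.

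Members that lie side by side in the genome did not always share a course. The 44 members form 12 adjacent pairs by RefSeq order, among them OAS1 and OAS3, MX2 and MX1, and IFIT1 and IFIT5. IFIT1 and IFIT5, adjacent on chromosome 10 and both with 2 or more matches before the start, had log2 ratios of 1.49 and -0.14 from BJ to day 2. IFITM1 and IFITM3 had 2.00 and 0.71.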

How the data were processed

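Single-cell RNA levels were measured in 480 cells of 5 groups; per the labels' protocols, cells were captured on Fluidigm C1 chips and polyadenylated RNA was made into Nextera XT libraries. The values deposited by the authors are FPKM, in 1 table per group; STAR, Cuffnorm and hg19 were used per the submitters' processing notes, with versions not given in the sources used here. FPKM keep no counts, so the depth per cell is unknown and no count test was run.

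FPKM were rescaled to 1000000 per cell. Cells were kept with at least 2000 genes at 1 or more and with ACTB or GAPDH detected; no 2 cells were identical, and doublets could not be called. Ratios are log2((mean + 1)/(mean + 1)) over kept cells. A group is 1 sample, so no p-value was computed; shares carry 95% Clopper-Pearson intervals, and a share of 0 is limited by 3 counts. Members with a mean of 10 or more in a group (35 of 44) were named with values; some genes outside the members that the rule would name are not reported here. The members, the pathway list and the fibroblast, pluripotency, immune, endothelial and keratinocyte markers were chosen with earlier results of these data known. Fold calls were tested on simulated data, with changes larger than 2-fold in genes with a BJ mean of 10 or more. Changes near 2-fold and genes of lower level were not covered. Alternatives covered the scaling, the cell filter, the pseudocount, the minimum mean, the summary and the detection threshold; 5 subsets of cells were added after seeing the data. Python 3.11.15, numpy 2.4.6, pandas 2.3.3, scipy 1.17.1 and matplotlib 3.10.9 were used.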

Additional observations from a re-analysis of the deposited data

How the results depend on the processing

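Of 115 recomputed values, 98 stayed within 1.5 times the main count or within its interval, 16 moved and 1 changed sign: the level part of MX1 at day 2 against BJ was -0.67 and became 3.73 without BJ cell 8. The 27 members higher at day 2 than in BJ became 15 with a pseudocount of 10, 16 by the difference of mean log2 values and 17 with day 2 cells of RPL21 under 100. The share of all genes called higher was 12.2% and became 2.99%, 3.68% and 15.7% in these settings. The 27 lower at day 8 than at day 2 became 12 with a pseudocount of 10, 17 of 24 measured (against 27 of 42) with a minimum mean of 10, 16 by the difference of mean log2 values and 17 with day 2 cells of RPL21 under 100. In the last of these 3 members were higher, where the share of all genes that were higher was not computed. The share of all genes called lower was 12.5% and became 3.05%, 11.4%, 3.43% and 15.2% in these settings. The 8 lower in the positive fraction than at day 8 became 3 with a pseudocount of 10 (3.83% of all genes, from 11.6%). In cells with at least 4000 genes 8 were lower (10.1% of all genes) and 11 higher, where the share of all genes that were higher was not computed. The median log2 ratio was then 0.08 over the members and 0.53 over all genes. The share of cells with 22 or more members moved with the threshold of detection. At day 2 it went from 31.2% to 46.9% with any value above 0, 16.7% at 5 or more and 10.4% at 10 or more, and in the negative fraction from 55.3% to 41.2% at 5 and 34.1% at 10. At day 8 it went from 2.17% to 0% at 5, at 10 and without the 5% of cells with most genes. Scaling on housekeeping genes moved the median log2 ratio of all genes to 0.77 in the positive against the negative fraction, 0.74 in the negative fraction against day 8 and -0.24 from day 2 to day 8. Among single members, SAMD9 turned from -1.06 to 0.16 from day 2 to day 8 when all 480 cells were used, and IFI27 turned from -1.74 to 0.71 there with day 2 cells of RPL21 under 100. The cause was not tested. No paired analysis was possible because the numbers name cells within a group, pair nothing across groups, and no test was run. The number of cells per group and the unknown depth limit the shares.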

Other observations

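Genes outside the members that met the rule of day 2 and the negative fraction both at least 4-fold above each other group comprised 8 ribosomal protein genes or copies (RPL21, RPL21P28, RPL36A, RPL7, RPL9, RPS26, RPS27 and RPS28) and 7 others (BOP1, FLG, KIAA1211, KRT16, PSMC1, RGCC and SNORD141B). The ribosomal genes had the largest levels among them: RPS27 had means of 402, 7498, 414, 389 and 9186 in the order BJ, day 2, day 8, positive, negative. PSMC1, a subunit of the proteasome, was detected in most cells of every group (66.3 to 94.6%) and had means of 24.2, 154, 18, 13.7 and 113. FLG and KRT16, genes of the epidermis, were detected in 20.8 and 26% of day 2 cells, with means of 13.1 and 28.6, and in 14.1 and 18.8% of negative cells.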
